A study of Rattus norvegicus with 24 samples.

Results

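Eif4ebp1 and Sesn2, 2 of the 32883 rat genes with counts, encode proteins that slow protein synthesis at different points of the same pathway. They were taken from the genes that the study lists as higher in oligodendrocytes (OLs) treated with dolutegravir (DTG, an integrase inhibitor used against HIV) than in OLs treated with the vehicle dimethyl sulfoxide (DMSO). Values from DTG-treated and DMSO-treated OLs therefore describe how the 2 genes were chosen and are given without a test. RNA was sequenced from primary oligodendrocyte precursor cells (OPCs) and OLs of neonatal Sprague Dawley rat cortex in 6 conditions with 4 libraries each. The OPCs had proliferated for 24 hours, either untreated, in 0.04% DMSO or in 8 µM DTG. OLs had 24 hours of proliferation followed by 72 hours of differentiation, untreated or with the same DMSO or DTG concentrations. The OPCs were purified by shaking them off mixed glial cultures, and the study counts cultures of separate litters as replicates. Libraries with the same replicate number carry the same prefix in their library names in all 6 conditions and are taken here as 1 litter. Between 13241279 and 18499994 reads were assigned to genes in each library. The untreated OPC and untreated OL libraries of replicate 3 were counted on another gene annotation, which gives Eif4ebp1 an exonic length of 2320 bases in place of 831. They were left out of the untreated groups (n = 3) unless stated.

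mTORC1 is the kinase complex that couples nutrients and growth factors to protein synthesis, and in the oligodendrocyte lineage it is known for its part in differentiation and myelination. Eif4ebp1 encodes 4E-BP1, which in its unphosphorylated form holds the cap-binding protein eIF4E away from the translation initiation complex and is released from it when mTORC1 phosphorylates it. Sesn2 encodes Sestrin2, a stress-induced protein that binds leucine and the GATOR2 complex and lowers mTORC1 activity when leucine is scarce. Both genes are known targets of ATF4, the transcription factor of the integrated stress response, and Sesn2 is also a known target of p53 and of NRF2. Transcript levels were measured here, and neither the phosphorylation of 4E-BP1 nor mTORC1 activity can be read from them.

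In Rnor_6.0, the build that the labels name, Eif4ebp1 (ENSRNOG00000012582) lies on the minus strand at chr16:68954875-68968248 with 3 exonic blocks. Sesn2 (ENSRNOG00000042785) lies on the minus strand at chr5:150684133-150704117 with 10 exonic blocks and 3739 exonic bases. No exon of another gene overlaps either of them, so their counts are not shared with a neighbour. A promoter sequence was at hand for Sesn2, and it was searched on both strands for the C/EBP-ATF response element (CARE, TGATGNAA), to which ATF4 binds, the antioxidant response element (ARE, TGACNNNGC), to which NRF2 binds, and the cAMP response element (CRE, TGACGTCA). These letters occur in 3.98%, 12.1% and 1.83% of all 33469 RefSeq promoters of 300 bases (250 before and 50 after the transcription start). Sesn2 held 1 match, an ARE at position -40, and its 100 bases before the start are shown beside those of Trib3 and Slc7a1, ATF4 target genes that were also higher in DTG-treated OLs and held a CARE at positions -21 and -30. They were picked for that match: of the 14 named ATF4 targets with a promoter entry, 4 held a CARE and 5 an ARE, Slc7a1 among them with an ARE at position -107, outside the stretch shown. The sequences run 5′ to 3′ on the strand of each gene and end at the base before the start, with the match to the ARE (Sesn2) or to the CARE (Trib3 and Slc7a1) in capitals.
Sesn2: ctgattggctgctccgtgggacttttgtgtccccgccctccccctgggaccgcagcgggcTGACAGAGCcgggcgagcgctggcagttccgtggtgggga
Trib3: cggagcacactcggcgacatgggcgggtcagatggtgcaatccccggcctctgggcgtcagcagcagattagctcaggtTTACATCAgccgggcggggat
Slc7a1: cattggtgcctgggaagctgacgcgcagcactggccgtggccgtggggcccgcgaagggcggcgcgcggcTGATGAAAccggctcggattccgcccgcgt
In the RefSeq build GRCr8 these windows are chr5:150005256-150005355 on the minus strand, chr3:161275534-161275633 on the minus strand and chr12:11664388-11664487 on the plus strand. A match describes the letters in the window and not a binding site. The promoter of Eif4ebp1 was not analysed here.

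In CPM, DTG-treated OLs stood apart from every other condition for both genes, whereas the remaining 5 conditions overlapped. Per 1000 ERCC counts (synthetic spike-in transcripts, described with the other measures), they stood apart from the other OLs for both genes. For Sesn2 they overlapped with OPCs of every treatment, and for Eif4ebp1 only with DTG-treated OPCs. On that scale Sesn2 was at 5.76 to 11.3 in DTG-treated OLs and 7.75 to 12.3 in DTG-treated OPCs, and Eif4ebp1 was at 3.84 to 6.45 and 2.32 to 4.2. Levels are given as CPM, read counts relative to library size, scaled with the TMM method over the 22 libraries with a common annotation. In DTG-treated OLs, Eif4ebp1 was at 193, 181, 183 and 123 CPM in replicates 1 to 4, and in DMSO-treated OLs at 19.8, 41.9, 63.6 and 39.3 CPM. All 4 DTG-treated libraries lay above all 4 DMSO-treated libraries. The group means were 169.8 ± 31.8 CPM (SD, n = 4) and 41.1 ± 17.9 CPM (SD, n = 4), a 4.14-fold difference (log2 fold change 2.05, with a standard error, SE, of 0.27).

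Sesn2 was at 332, 271, 304 and 229.8 CPM in DTG-treated OLs and at 75.2, 119, 136 and 122 CPM in DMSO-treated OLs. These libraries did not overlap either. The means were 284 ± 43.9 CPM and 113 ± 26.2 CPM (SD, n = 4 each), a 2.51-fold difference (log2 fold change 1.33, SE 0.18). Among the 12710 genes tested in this comparison, Eif4ebp1 had the 14th and Sesn2 the 58th largest rise in DTG-treated OLs. In the comparison as a whole, 71 genes (0.559%) were called, which here means a log2 fold change beyond 1 in either direction with an adjusted p-value below 0.05, and 168 were called when the litter was added to the model, 17 under ERCC scaling and 29 to 89 with a library left out, the fewest without the DMSO-treated OL library of replicate 2. Nothing is read from this share for the 2 genes, because they were chosen on it.

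**Figure D1:**
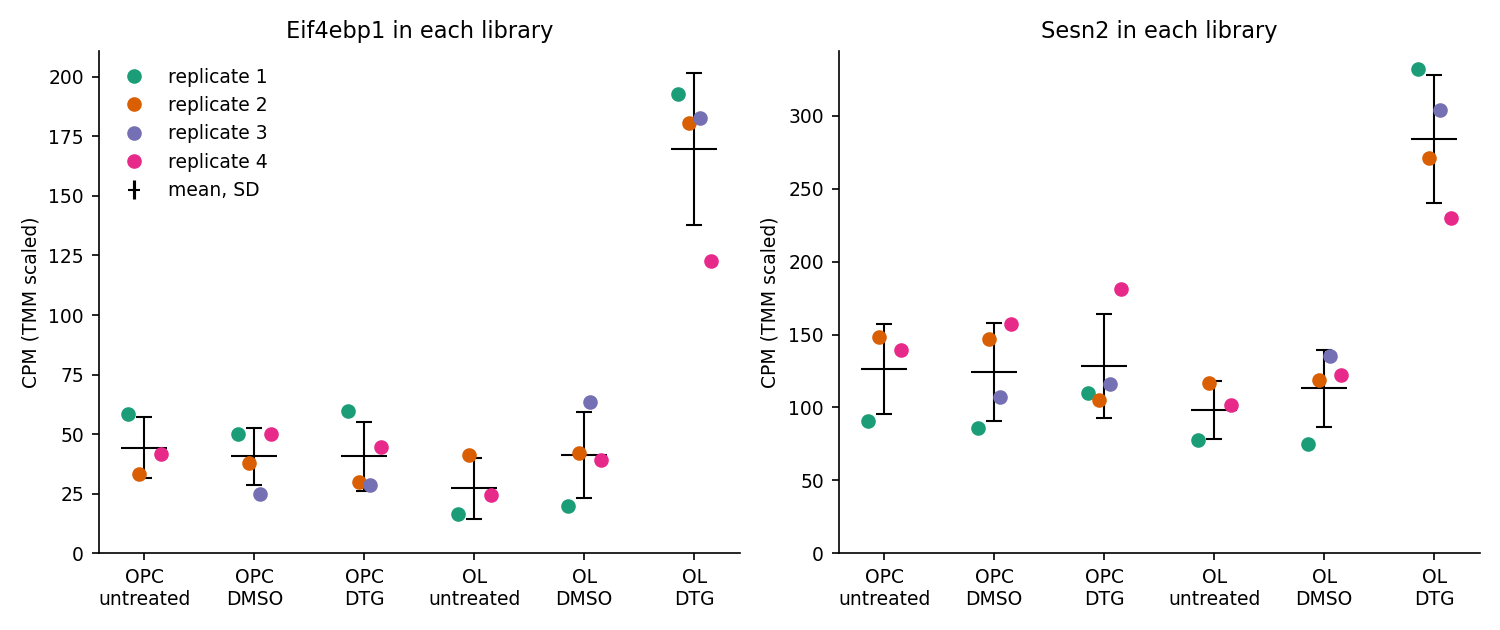
Level of Eif4ebp1 (left) and Sesn2 (right) in CPM in each of the 22 libraries with a common annotation, coloured by replicate, with the mean and SD of each condition as black bars. The 4 libraries of DTG-treated OLs lie between 123 and 193 CPM for Eif4ebp1 and between 229.8 and 332 CPM for Sesn2, above the 18 other libraries.

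The highest of the 18 other libraries was at 63.6 CPM for Eif4ebp1, a DMSO-treated OL library, and the lowest DTG-treated OL library was 1.93-fold above it. For Sesn2 the highest other library was at 181 CPM, a DTG-treated OPC library, and the gap was narrower, at 1.27-fold. Ordered by mean, Eif4ebp1 went from untreated OLs (27.2 ± 12.7 CPM, n = 3) through DTG-treated OPCs (40.6 ± 14.6, n = 4), DMSO-treated OPCs (40.7 ± 11.99, n = 4), DMSO-treated OLs and untreated OPCs (44.3 ± 12.9, n = 3) to DTG-treated OLs. Sesn2 went from untreated OLs (98.45 ± 19.8 CPM, n = 3) through DMSO-treated OLs, DMSO-treated OPCs (124 ± 33.6, n = 4), untreated OPCs (126 ± 30.8, n = 3) and DTG-treated OPCs (128 ± 35.6, n = 4) to DTG-treated OLs. Each neighbouring pair in both orders had overlapping libraries except the last step to DTG-treated OLs. Per kilobase of exon, with the lengths of the common annotation, Eif4ebp1 exceeded 83.8% of the 14046 genes kept in the 22 libraries in DMSO-treated OLs and 96.3% in DTG-treated OLs. For Sesn2 these shares were 76.5% and 89.2%.

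Within litters, the ratio of DTG-treated to DMSO-treated OLs was above 1 for both genes in 4 of 4 litters, but its size varied. For Eif4ebp1 it was 9.75, 4.31, 2.88 and 3.13 in litters 1 to 4. For Sesn2 it was 4.41, 2.28, 2.24 and 1.88. Litter 1 had the largest ratio for both genes in CPM, and it also had the lowest DMSO-treated OL library and the highest DTG-treated OL library for both. Scaled to ERCC counts, the ratios were 7.63, 4.53, 7.0 and 6.49 for Eif4ebp1 and 3.45, 2.39, 5.46 and 3.90 for Sesn2, so that litter 3 had the largest for Sesn2, and replicate 3 was the lowest DMSO-treated OL library for both genes. The control libraries spread more than the treated ones in CPM, since the highest and lowest DMSO-treated OL libraries differed 3.21-fold for Eif4ebp1 and 1.80-fold for Sesn2, against 1.57-fold and 1.44-fold among DTG-treated OLs. Per 1000 ERCC counts this order turned for Eif4ebp1 (1.35-fold against 1.68-fold) and not for Sesn2 (2.19-fold against 1.95-fold). Against untreated OLs the difference was 6.27-fold for Eif4ebp1 (log2 fold change 2.65, SE 0.30) and 2.89-fold for Sesn2 (log2 fold change 1.53, SE 0.19).

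Other measures also differed between DTG-treated and DMSO-treated OLs. Transcripts of the mitochondrial chromosome took 3.96% to 5.70% of gene counts in DTG-treated OLs, against 2.04% to 2.55% in DMSO-treated OLs, with no overlap. Shares as high occurred in OPCs. They were 3.1% to 5.7% with DTG, 2.0% to 4.5% in DMSO and 2.2% to 5.0% untreated, with untreated replicate 3 kept. The 3 OL marker genes that could be named of a list of 14 (Mbp, Mog and Enpp6) summed to 1750 to 4410 CPM in DTG-treated OLs and to 4380 to 11600 CPM in DMSO-treated OLs, nearly all of it from Mbp. The myelin protein gene Mog fell (log2 fold change -1.01, SE 0.16, adjusted p = 0.0116), and Mbp had a log2 fold change of -1.40 (SE 0.33, adjusted p = 0.0772) without the litter and an adjusted p of 1.2e-06 with it. The part of these changes in the levels of Eif4ebp1 and Sesn2 was not tested, and in bulk RNA fewer cells of a type and less RNA per cell cannot be told apart. ERCC transcripts, synthetic RNAs added to a fixed amount of total RNA, took 1.89% to 3.72% of counts in DTG-treated OLs and 2.19% to 7.19% in DMSO-treated OLs. Scaled to ERCC counts, the median of all genes moved to 0.44 on the log2 scale in this comparison, and Eif4ebp1 (log2 fold change 2.67) and Sesn2 (1.86) remained above it.

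In OPCs, DTG was tested on libraries that played no part in choosing the genes, and neither gene passed the test. Eif4ebp1 was at 59.7, 29.7, 28.6 and 44.6 CPM in DTG-treated OPCs and at 50.2, 37.9, 24.9 and 49.8 CPM in DMSO-treated OPCs. The groups overlapped, with a log2 fold change of 0.00 (SE 0.30, adjusted p = 0.998 by the quasi-likelihood test of edgeR). Sesn2 was at 110.1, 105, 116 and 181 CPM in DTG-treated OPCs and at 85.9, 147, 107 and 158 CPM in DMSO-treated OPCs. These also overlapped, with a log2 fold change of 0.05 (SE 0.25, adjusted p = 0.957). Within litters the ratio ranged from 0.784 to 1.19 for Eif4ebp1 and from 0.717 to 1.28 for Sesn2. Of 13270 genes tested, 0 (0.0%) were called in this comparison by edgeR, DESeq2 also called 0, and for 66 the edgeR p-value before adjustment was below 0.05. Those 66 are 0.497% of the genes, under the share of 0.05 that no effect at all would give. The test was thus strict, and the lack of calls does not show that DTG changed nothing in OPCs. The response to DTG in OLs exceeded that in OPCs by 2.07 on the log2 scale for Eif4ebp1 (SE 0.45) and by 1.30 for Sesn2 (SE 0.33), values given as a description because the OL response chose the genes.

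Differentiation without drug was tested between untreated OLs and untreated OPCs. Eif4ebp1 was at 16.3, 41.1 and 24.2 CPM in untreated OLs of replicates 1, 2 and 4 and at 58.4, 33.1 and 41.5 CPM in the matching OPCs. The groups overlapped, and the log2 fold change was -0.72 (SE 0.32, adjusted p = 0.102 by edgeR). Sesn2 was at 77.4, 117 and 101 CPM in untreated OLs and at 90.9, 148 and 139 CPM in untreated OPCs, with a log2 fold change of -0.37 (SE 0.21, adjusted p = 0.207). Neither gene passed the test, in a comparison in which 38.0% of 13110 genes had an adjusted p-value under 0.05 and 22.7% were called. For Eif4ebp1 this depended on the libraries and on the filter on low counts. The adjusted p-value was 0.0161 without the untreated OL library of replicate 2 and 0.0395 without the filter (log2 fold change -0.71). The log2 fold change was -0.27 (adjusted p = 0.599) with the untreated libraries of replicate 3 kept and -1.38 (adjusted p = 0.0919) under ERCC scaling, with the median of all genes at -0.53. With DMSO at both stages, OLs differed from OPCs by 0.02 (SE 0.32) for Eif4ebp1 and by -0.13 (SE 0.24) for Sesn2 on the log2 scale. Under ERCC scaling these values became -1.48 and -1.53, with the median of all genes at -1.48.

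In TMM-scaled CPM, the small mean change of Eif4ebp1 with differentiation covered ratios on both sides of 1 in different litters. In DMSO, the ratio of OLs to OPCs was 0.394, 1.11, 2.56 and 0.788 in litters 1 to 4. In untreated cells it was 0.279, 1.24 and 0.584 in litters 1, 2 and 4. In litter 3, whose untreated libraries were counted on the other annotation, the untreated ratio was 1.99. Each litter thus lay on the same side of 1 untreated and in DMSO, although the untreated and DMSO-treated cells were separate cultures and separate libraries. For Sesn2 the ratio was 0.875, 0.811, 1.27 and 0.776 in DMSO and 0.851, 0.786 and 0.729 in untreated litters 1, 2 and 4, with 1.46 in litter 3. In CPM, litter 3 had the highest ratio for both genes untreated and in DMSO, and litter and shared handling cannot be told apart here. Scaled to ERCC counts, every one of these ratios lay below 1 for both genes. For Eif4ebp1 these ratios were 0.253, 0.473, 0.253 and 0.673 in DMSO and 0.188, 0.383, 0.517 and 0.768 in untreated litters 1 to 4, and litter 3 no longer had the highest. For Sesn2 litter 3 then had the lowest ratio in DMSO (0.125, against 0.346 to 0.663 in the others). The median ratio of all genes with at least 10 counts in both libraries also moved with this scaling, to 0.622, 0.414, 0.0911 and 0.834 in DMSO and to 0.667, 0.312, 0.239 and 1.32 untreated, so that Eif4ebp1 lay below this median in litters 1 and 4 and above it in litters 2 and 3.

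**Figure D2:**
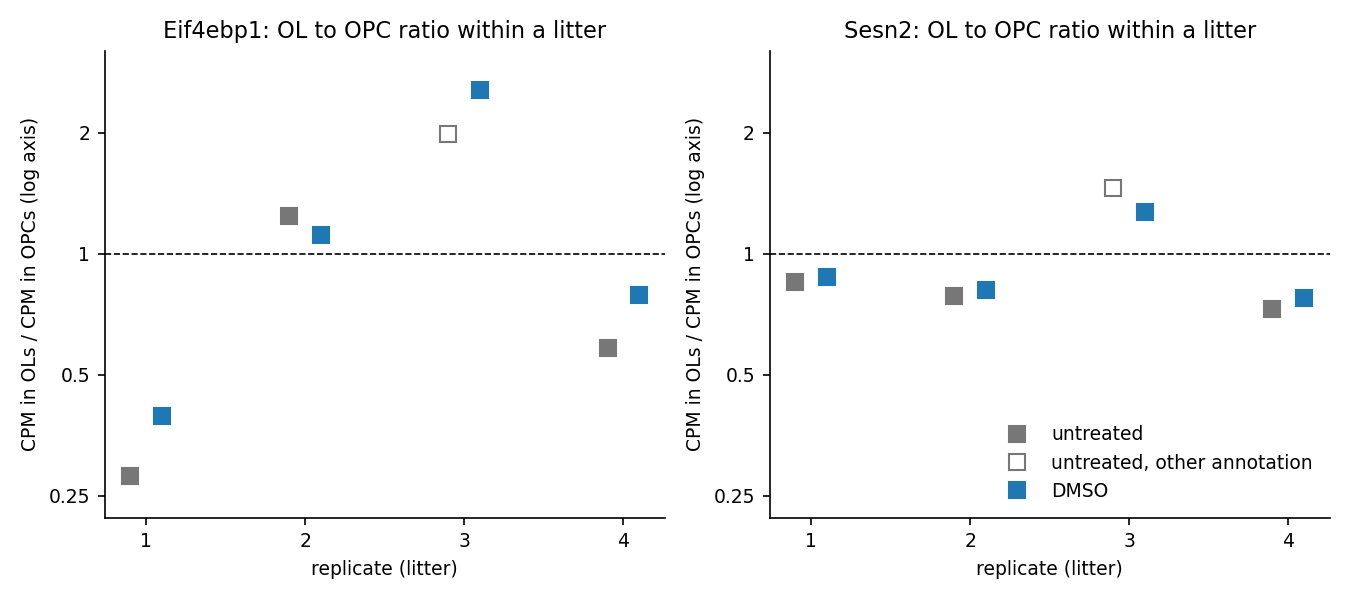
Ratio of the CPM in OLs to the CPM in OPCs of the same litter (log axis, dashed line at 1) for Eif4ebp1 (left) and Sesn2 (right), in untreated cells (grey) and DMSO-treated cells (blue). The open square marks the untreated libraries of replicate 3, counted on another annotation. For Eif4ebp1 litters 1 and 4 lie below 1 and litters 2 and 3 above 1 with either treatment in CPM, whereas all lie below 1 when scaled to ERCC counts.

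No effect of the vehicle was found on either gene in OPCs. Eif4ebp1 had a log2 fold change of -0.10 (SE 0.28, adjusted p = 1.0) between DMSO-treated and untreated OPCs, and Sesn2 had 0.00 (SE 0.26, adjusted p = 1.0). Of 13244 genes tested there, 0 (0.0%) were called by edgeR and by DESeq2, and 3 were called with the litter in the model. The unadjusted edgeR p-value was under 0.05 for 78 (0.589%), so this test was strict as well. In OLs, the ratio of DMSO-treated to untreated CPM in litters 1, 2 and 4 was 1.22, 1.02 and 1.62 for Eif4ebp1 and 0.972, 1.02 and 1.20 for Sesn2. Scaled to ERCC counts, the ratio in these litters was 1.44, 1.15 and 0.742 for Eif4ebp1 and 1.15, 1.15 and 0.552 for Sesn2. The log2 fold change over the groups went from 0.56 to -0.05 for Eif4ebp1 and from 0.15 to -0.43 for Sesn2, with the median of all genes at -0.54. Between DTG-treated OLs and DTG-treated OPCs the log2 fold change was 2.05 for Eif4ebp1 (SE 0.26) and 1.14 for Sesn2 (SE 0.20), but scaled to ERCC counts these became 0.80 and -0.11 while the median of all genes was at -1.35. Comparisons that share a group of libraries are not independent of each other.

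**Figure D3:**
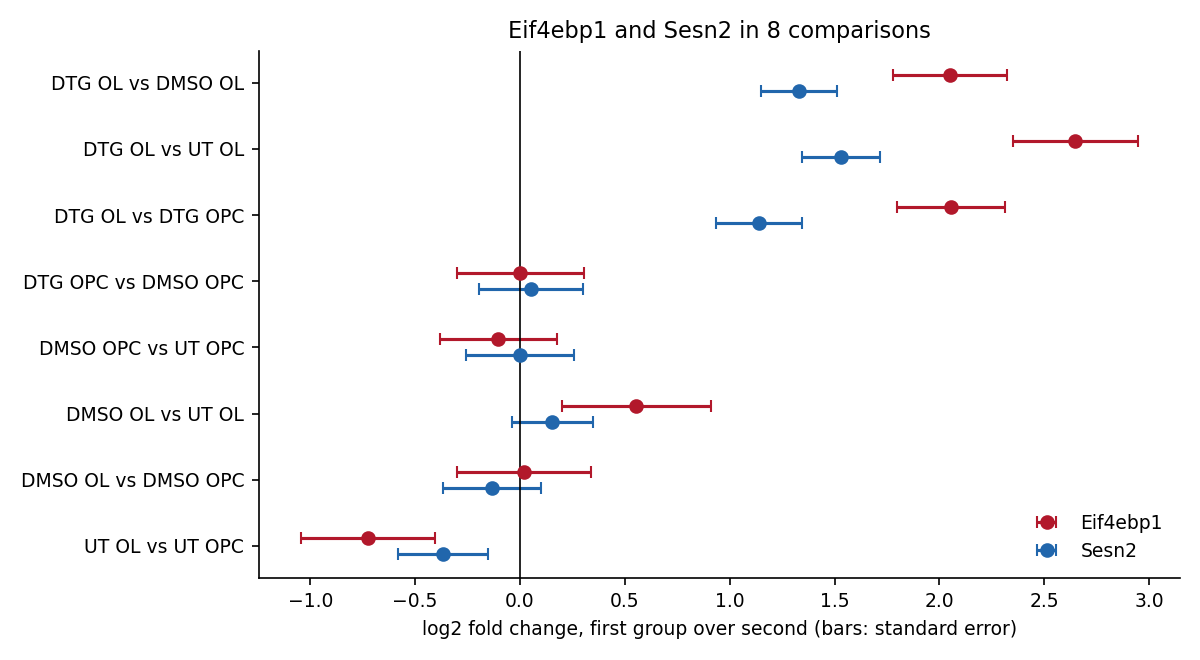
Log2 fold change, first group over second, of Eif4ebp1 (red) and Sesn2 (blue) in 8 comparisons, with bars for the standard error. UT stands for untreated. The 3 comparisons with DTG-treated OLs lie between 1.14 and 2.65, and the others between -0.72 and 0.56.

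The levels of the 2 genes relative to each other differed in DTG-treated OLs. Per kilobase of exon, Sesn2 was at 0.375 ± 0.034 of the level of Eif4ebp1 in DTG-treated OLs (SD, n = 4), with libraries from 0.333 to 0.416. In DMSO-treated OLs the ratio was 0.661 ± 0.153, with libraries from 0.474 to 0.845, and in untreated OLs 0.874 ± 0.221 (n = 3). The DTG-treated OLs did not overlap with the other OLs, which overlapped with each other, but OPC libraries reached as low as 0.346 untreated, 0.381 in DMSO and 0.410 in DTG. In RPKM, the CPM per kilobase of exon, Eif4ebp1 was above Sesn2 in the mean of each of the 6 conditions, from 32.7 against 26.3 in untreated OLs to 204 against 76.0 in DTG-treated OLs. This order rests on the 831 bases that the common annotation gives Eif4ebp1. In the untreated libraries of replicate 3, counted on the other annotation with 2320 bases for Eif4ebp1 and 3517 for Sesn2, Eif4ebp1 was the lower gene, at 11.6 against 27.0 RPKM in OPCs and 23.1 against 39.4 RPKM in OLs.

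Relatives and partners of the 2 proteins could be followed only in part, because identifiers were paired with symbols only for 2107 genes that the study lists as changed in at least 1 comparison. The study's list for OPCs against OLs in DMSO was used here only in part, and that part holds genes lower in OLs: of the 1928 genes named by it alone and tested in that comparison, 1927 had a negative log2 fold change. A fall with differentiation was thus fixed for these genes by how they were named, and in DTG-treated against DMSO-treated OLs, which share the DMSO-treated OL libraries with that list, 1062 of 1678 (63.3%) had a positive log2 fold change. Of 188 genes in the pathway lists, 40 could be named, and counts over such lists are therefore not independent evidence where the comparison is the one that put a gene on the study's list. Eif4ebp3, the only named relative of Eif4ebp1, was at 22.8 ± 3.45 CPM in DTG-treated and 20.15 ± 2.26 CPM in DMSO-treated OLs (SD, n = 4 each) and was not called (log2 fold change 0.17, SE 0.17, adjusted p = 0.712). In OPCs its log2 fold change with DTG was 0.42 (SE 0.31, adjusted p = 0.906). No other Sestrin was named.

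Few genes that act around mTORC1 could be named, and none of those given here passed the test with DTG in either cell stage when the litter was not in the model. Fnip2, a partner of folliculin in amino acid signalling at the lysosome, had a log2 fold change of 0.82 in OLs (adjusted p = 0.123, or 0.0273 with the litter in the model). The others were Prkaa2, a catalytic subunit of the energy sensor AMPK (0.06), Pik3r1, a regulatory subunit of phosphoinositide 3-kinase (-0.03), the mTORC1 effector Grb10 (-0.01), the cap-binding protein gene Eif4e3 (-0.02) and Eif2s1, the subunit of eIF2 that is phosphorylated in the integrated stress response (-0.02). The identifier that the study names Rps6 was at 1.248 to 5.338 CPM by condition mean, and it belongs to a ribosomal protein family with near-identical copies, so its value is uncertain. None of the 10 genes listed for the mTOR complexes was named. With differentiation of untreated cells, Grb10 (log2 fold change -2.45, adjusted p = 7.85e-05) and Eif4e3 (-1.60, adjusted p = 0.013) were called lower, as was the identifier named Rps6 (-1.35, adjusted p = 0.0424), in a comparison where 11.7% of genes were called lower. All 3 were named as genes lower in OLs, so this direction is no finding.

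The ATF4 target genes that could be named had positive log2 fold changes in DTG-treated OLs, as Eif4ebp1 and Sesn2 had. Of 40 listed targets 17 could be named, and 12 of these were called higher and 0 lower in DTG-treated against DMSO-treated OLs, where 0.354% of all genes were called higher. Under ERCC scaling 7 were called, where 17 of all genes were called in either direction. With the litter in the model 16 were called, where 0.747% of all genes were called higher. All 17 had a positive log2 fold change, with a median of 1.55 against 0.01 for all genes tested. The study's list for this same comparison supplied 16 of the 17 names, so the count is no independent evidence. The 4 with the largest rises were Trib3, a pseudokinase that restrains ATF4 (log2 fold change 4.08, SE 0.40, adjusted p = 0.000588), the secreted stress factors Gdf15 (3.16, SE 0.33, adjusted p = 0.000859) and Stc2 (2.48, SE 0.35, adjusted p = 0.00569), and the cystine transporter gene Slc7a11 (2.48, SE 0.22, adjusted p = 0.000528). Eif4ebp1, at 2.05, and Sesn2, at 1.33, lay below these 4 but within the range of all 17 targets, 0.71 to 4.08. Sesn2 was below the median of the 17. Atf4 itself, picked after its values were seen, was at 353 ± 69.5 CPM in DTG-treated and 162 ± 21.4 CPM in DMSO-treated OLs (log2 fold change 1.12, SE 0.16, adjusted p = 0.0067, or 0.187 under ERCC scaling).

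In OPCs, 0 of the 17 ATF4 targets were called with DTG, and so were 0 of all 13270 genes tested (0.0%). Of the 17, 14 had a positive and 3 a negative log2 fold change, and their median was 0.24 against 0.00 for all genes. Trib3 had the largest value (log2 fold change 1.31, SE 0.47, adjusted p = 0.906), and it was higher in DTG in 4 of 4 litters, by 1.67-fold to 5.28-fold. The difference in the response between OLs and OPCs was fitted over all genes as an interaction. It reached no adjusted p-value under 0.05 for any of the 13734 genes in edgeR, where 366 had an unadjusted p-value under 0.05, and DESeq2 called 4. Asns, which encodes asparagine synthetase, differed by 1.64 on the log2 scale (SE 0.33), a description only, since it was named through its response in OLs.

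**Figure D4:**
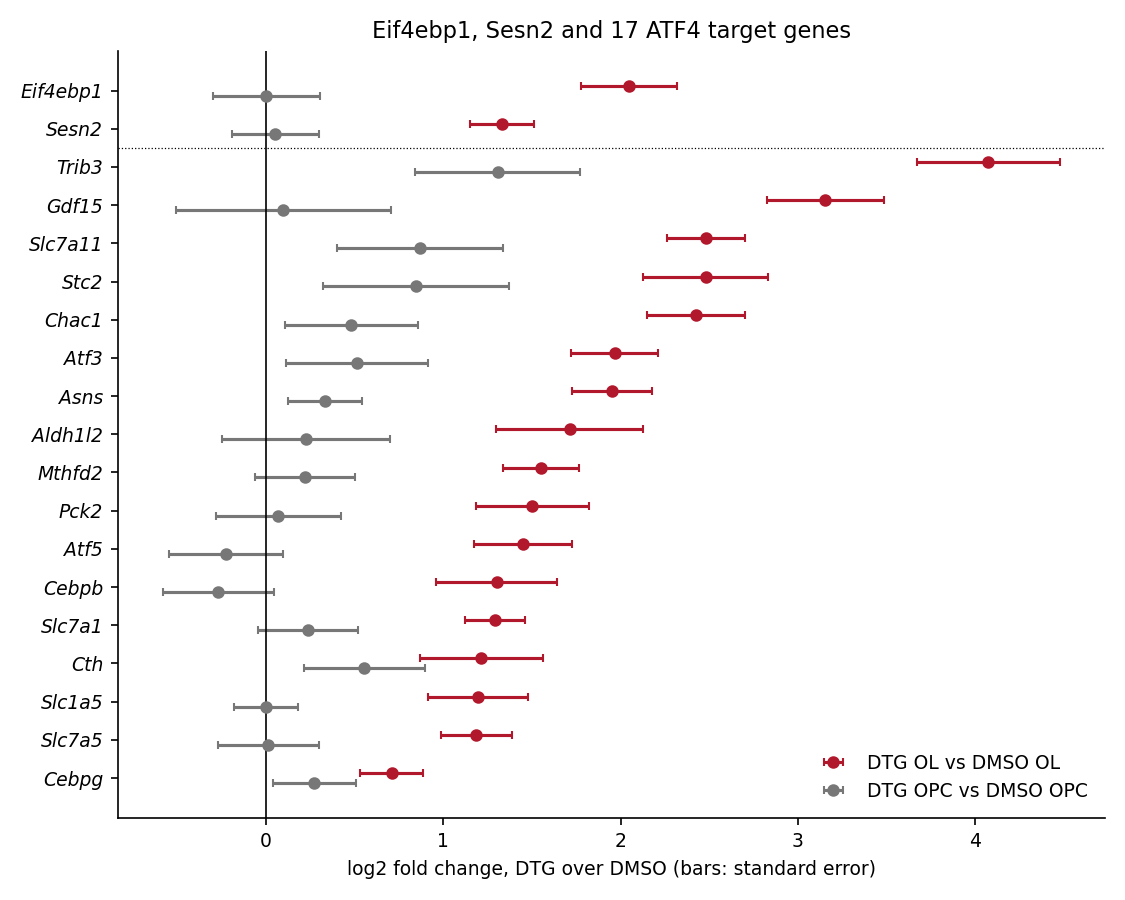
Log2 fold change of DTG over DMSO in OLs (red) and OPCs (grey) for Eif4ebp1, Sesn2 and, below the dotted line, the 17 named ATF4 target genes in order of their value in OLs, with bars for the standard error. Values in OLs run from 0.71 for Cebpg to 4.08 for Trib3, and values in OPCs from -0.27 for Cebpb to 1.31 for Trib3.

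The named targets of p53 and NRF2, the other transcription factors known to act on Sesn2, had positive log2 fold changes with DTG in OLs in 7 of 7 and 4 of 4 cases, with medians of 0.77 and 0.89. The study's list for this comparison supplied 1 of the 8 p53 names and 2 of the 4 NRF2 names, against 16 of the 17 for ATF4, so the lists cannot be compared by their counts, and the other 7 p53 names came from genes listed as lower in OLs. Of 20 p53 targets 8 could be named, and 7 passed the filter on low counts in OLs. In DTG-treated OLs, where 0.354% of all genes were called higher, 1 of these was called, Cdkn1a, the cell cycle inhibitor p21 (log2 fold change 1.00, SE 0.20, adjusted p = 0.0351). That call was lost in 6 of the 8 fits that left out a library, with log2 fold changes of 0.84 to 1.11, and it was made with the litter in the model (1.02, adjusted p = 0.000137). The death receptor gene Fas rose by less than the call requires (log2 fold change 0.97, adjusted p = 0.0413), and it too lost the test in 7 of those 8 fits (log2 fold changes of 0.83 to 1.09 over the 8) but passed with the litter in the model (adjusted p = 0.00447). With the litter, 4 of the 7 p53 targets had a positive log2 fold change with an adjusted p-value below 0.05, against 2.71% of all genes. Of these 4, Cdkn1a was named through the study's list for this comparison and the others as genes lower in DMSO-treated OLs. Of all genes named only in that second way, 63.3% had a positive log2 fold change here without the litter. Neither this count nor the 7 of 7 is thus independent evidence. Of 20 NRF2 targets 4 could be named, and the only call was Slc7a11, which is also an ATF4 target, against the same 0.354%. Hmox1, the heme oxygenase gene, had a log2 fold change of 1.17 (SE 0.31, adjusted p = 0.11) and was called with the litter in the model (adjusted p = 3.39e-05). That made 2 calls on this list with the litter, where 0.747% of all genes were called higher. All 4 genes then had an adjusted p-value below 0.05, against the same 2.71%. The 2 called, Slc7a11 and Hmox1, are the 2 that the study's list for this comparison supplied. The other 2 were named as genes lower in DMSO-treated OLs, so these counts are no independent evidence. With differentiation of untreated cells, the p53 targets named as genes lower in OLs had a direction fixed by that naming, and those called were Eda2r, a receptor gene of the tumour necrosis factor family (log2 fold change -2.66), the polo-like kinase gene Plk2 (-2.15), Fas (-1.39) and the RNA-binding protein gene Zmat3 (-1.05). For Cdkn1a the log2 fold change was -0.70 (adjusted p = 0.0974, or 0.022 with the litter in the model). Of the 17 ATF4 targets, 2 were called higher and 2 lower, near the shares of all genes (10.9% higher and 11.7% lower). The transcription factor genes Atf3 (1.59) and Atf5 (1.48) were called higher and the mitochondrial folate enzyme gene Mthfd2 (-1.49) and the glutamine transporter gene Slc1a5 (-2.83) lower in untreated OLs. Of the NRF2 targets, Hmox1 (1.27) was called higher there and the thioredoxin gene Txn1 (-2.03), named as lower in OLs like Mthfd2 and Slc1a5, lower.

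The named genes whose pattern over the 22 libraries was most like that of Eif4ebp1 were Asns, Slc7a5, Sesn2, Chac1 and Slc7a1, which ranked 1, 3, 7, 10 and 17 among all genes, the genes between them having no name here. Among 1935 named genes, Asns had the highest Pearson correlation of log2 CPM with Eif4ebp1 (0.947), and it was also first among all 12468 genes compared. Slc7a5, the large neutral amino acid transporter that carries leucine (0.904), Sesn2 (0.860), the glutathione-degrading enzyme gene Chac1 (0.854) and the cationic amino acid transporter gene Slc7a1 (0.828) followed. For Sesn2 the most alike were Gdf15 (0.902), Cdkn1a (0.869), Eif4ebp1 (0.860), Asns (0.860) and Trib3 (0.824). All of these names come from the study's list for DTG-treated OLs, and the libraries share litters and TMM scaling, so the values are descriptive.

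Without the 4 DTG-treated OL libraries, part of this likeness remained and part did not. Over the other 18 libraries, Eif4ebp1 kept a correlation of 0.889 with Slc7a5 and 0.827 with Asns but had 0.402 with Chac1. Sesn2 had 0.918 with Cdkn1a and 0.710 with Gdf15 but 0.389 with Asns and 0.158 with Trib3. The correlation between Eif4ebp1 and Sesn2 themselves was 0.470. In DMSO-treated OLs, Asns was at 25.1, 49.7, 62.9 and 47.9 CPM in replicates 1 to 4, lowest in replicate 1 and highest in replicate 3 like Eif4ebp1. Per 1000 ERCC counts both genes were lowest in replicate 3, Asns at 0.680 and Eif4ebp1 at 0.687, and highest in replicate 4.

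**Figure D5:**
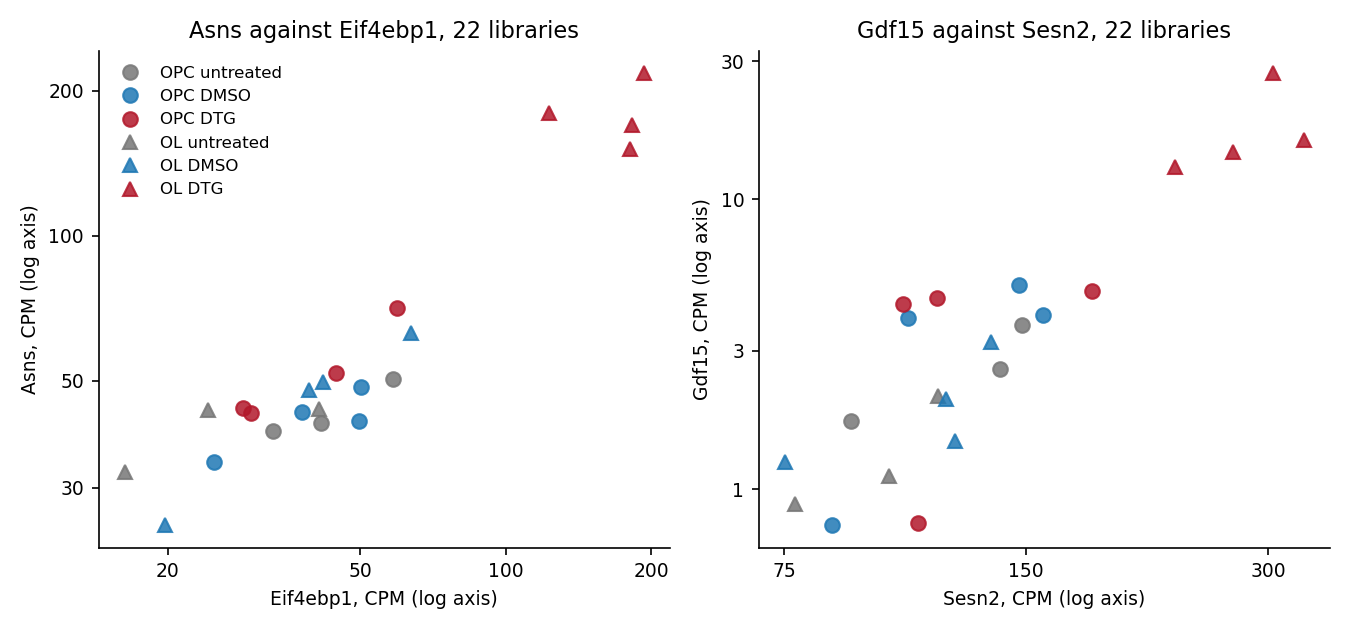
CPM of Asns against Eif4ebp1 (left) and of Gdf15 against Sesn2 (right) in the 22 libraries with a common annotation, on log axes, with circles for OPCs, triangles for OLs and colours for the treatment. The 4 DTG-treated OL libraries (red triangles) lie apart at the upper right, and the Pearson correlation of log2 CPM was 0.947 and 0.902 over all libraries and 0.827 and 0.710 over the 18 others.

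Few markers of the cell stages could be named, and the OPC markers only as genes that the study lists as lower in OLs, so that their fall with differentiation is no check of the labels. The OL markers were named through the study's list for DTG in OLs. The OL markers Mbp, Mog and Enpp6 summed to 226 ± 69.5 CPM in DMSO-treated OPCs and 8470 ± 3210 CPM in DMSO-treated OLs, and the OPC markers Pdgfra and Cspg4, the named 2 of 10, went from 870.0 ± 229 to 231 ± 74.3 CPM (SD, n = 4 each). In DTG-treated OLs the OPC markers summed to 210.0 ± 81.3 CPM. Of other cell types, Cd68 of microglia was at 0.315 ± 0.115 CPM in DMSO-treated and 0.431 ± 0.124 CPM in DTG-treated OLs, and Rgs5 of mural cells was listed at 0 in 2 of the 4 DTG-treated OL libraries. The 4 named neuronal markers summed to 91.9 ± 13.7 and 96.4 ± 16.3 CPM, with Map2 as the most abundant, and Sox9, on the astrocyte list but also expressed in OPCs, was at 75.6 to 104 CPM and 95.6 to 133 CPM. Sox9 and the 4 neuronal genes did not pass the test between DTG-treated and DMSO-treated OLs, and Cd68 and Rgs5 had too few counts there to be tested.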

How the data were processed

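Poly(A) RNA of 24 libraries was sequenced. The authors aligned reads with STAR 2.5.2b and assigned unique exonic reads to genes with featureCounts of Subread 1.5.2 on Rnor_6.0 per the labels, and deposited raw counts per gene and library, without normalization, with exonic gene lengths and the counts of 92 ERCC transcripts. The labels' build is not stated per file, and 2 untreated libraries list 30560 genes at other positions, of which 21651 identifiers are shared.

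Tests were run with edgeR 4.0.16 in R 4.3.3. ERCC counts were left out, low counts removed with filterByExpr, libraries scaled by TMM and a quasi-likelihood F test fitted per comparison without covariates, with Benjamini-Hochberg adjustment over all genes tested. A called gene had a log2 fold change beyond 1 in either direction with an adjusted p-value below 0.05. RPKM divides CPM by exonic length. Likeness used log2 CPM with a prior count of 2 for genes with a mean above 0.

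The 2 genes, the lists and the tests were chosen with earlier results of these data known. Named genes are the 2 genes, their relatives, list genes called (the 4 largest changes where more than 5 were called, with others given as values), marker genes and the 5 most alike. Symbols came from the study's own lists of changed genes, the differentiation list in part (genes lower in OLs), whose fold changes and p-values were not used. Promoters came from RefSeq GRCr8, with an entry for 14 of the 17 named ATF4 targets.

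The study's replicates are cultures of independent litters, and library names share a prefix for each replicate number across conditions, so equal numbers were taken to share a litter, which the labels do not state in words. Deviations of same-numbered libraries from their group means correlated across genes at 0.361, 0.364, 0.304 and 0.033 between DTG-treated and DMSO-treated OLs, and at 0.641, -0.07, 0.516 and 0.789 in OPCs. Over the 8 comparisons, 9 of 28 such correlations were below 0.1, the lowest -0.288. Alternatives were DESeq2 1.42.0 with its Wald test and its size factors, ERCC scaling, no filter, the litter as a block, untreated replicate 3 kept, and each library left out. Scripts were tested on simulated data. The 2 genes had 238 to 4498 counts per library, so counting error was small beside the spread between litters. Other experiments of the study were not analysed here. Some genes of the mTORC1 list are not reported here.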

Additional observations from a re-analysis of the deposited data

Results flagged for a closer look

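Over 88 groups of 4 libraries (the 2 genes, the 17 named ATF4 targets, the ERCC share, the mitochondrial share and the ratio of Sesn2 to Eif4ebp1), 4 held a library far from the other 3 by Dixon's test, and chance alone flags about 1 in 20 groups. Sesn2 was at 181 CPM in the DTG-treated OPC library of replicate 4, against 105 to 116 CPM in the others. Trib3 was at 1.14 CPM in the DMSO-treated OPC library of replicate 4, against 0.375 to 0.478 CPM in the others. Slc7a11 was at 22.9 CPM in the DTG-treated OL library of replicate 2, against 34.9 to 37.1 CPM in the others. Gdf15 was at 0.762 CPM in the DTG-treated OPC library of replicate 1, against 4.36 to 4.84 CPM in the others. Eif4ebp1 had no such library.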

How the results depend on the processing

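The higher level of both genes in DTG-treated OLs kept its direction against DMSO-treated OLs under each alternative run, with log2 fold changes of 1.82 to 2.67 for Eif4ebp1 and 1.18 to 1.86 for Sesn2, the highest under ERCC scaling. The replicate block changed no call of either gene, and gave a log2 fold change of 0.084 for Eif4ebp1 in DMSO-treated against untreated OPCs and -0.01 in DTG-treated against DMSO-treated OPCs. It moved the genes called in DTG-treated against DMSO-treated OLs from 71 to 168, and those in DMSO-treated against untreated OPCs from 0 to 3. Other settings gave 17 (ERCC scaling), 112 (no filter) and 128 (DESeq2) in the first of these, and ERCC scaling left 7 of the 12 called ATF4 targets. Leaving out a library gave 29 (without the DMSO-treated OL library of replicate 2) to 89 (without the DTG-treated OL library of replicate 1), and 46 without the DTG-treated OL library of replicate 3. DESeq2 called 4 genes in the interaction. ERCC scaling gave 6526 called genes for differentiation in DMSO and 1795 for untreated differentiation, against 4203 and 2974.

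ERCC scaling moved the median of all genes by over 1 with differentiation in DMSO and under DTG. It gave -1.48 for Eif4ebp1 and -1.53 for Sesn2 in DMSO, where the median was -1.48, and under DTG 0.80 for Eif4ebp1 and, with the sign turned, -0.11 for Sesn2, where the median was -1.35. Against untreated OLs, DMSO-treated OLs had -0.43 for Sesn2 and -0.05 for Eif4ebp1. In untreated differentiation it gave -1.38 for Eif4ebp1 and -0.91 for Sesn2, where the median was -0.53, and neither passed the test. In untreated differentiation Eif4ebp1 passed the test without the filter (-0.71, adjusted p = 0.0395 by edgeR) and ranged from -1.12 to -0.46 with a library left out. Values near 0 changed sign without passing a test. With DTG in OPCs, Eif4ebp1 had -0.006 with the size factors and -0.001 with the Wald test of DESeq2, and leaving out a library gave -0.24 to 0.14 for Eif4ebp1 and -0.16 to 0.19 for Sesn2. Between DMSO-treated and untreated OPCs, Eif4ebp1 had 0.053 with ERCC scaling, 0.029 with untreated replicate 3 kept and 0.042 with that and the replicate block, an alternative added after the data were seen, and Sesn2 had -0.021 with the size factors, -0.003 without the filter and -0.024 with the Wald test. Leaving out a library there gave -0.32 to 0.14 and -0.19 to 0.15. The causes of these differences were not tested. At this depth Trib3 had 6 to 39 counts in the OPC libraries, so its ratios there carry a large counting error.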
